A study of Mus musculus with 8 samples.

Results

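Dbp, Tef, Hlf and Nfil3 encode a small set of clock output transcription factors, and their loci were examined in 6 ChIP-seq peak lists. A peak was counted for a gene when its centre lay inside the gene's RefSeq span or within 20 kb of it. This rule gave 36 of the 137716 peaks in the 6 lists, at 4 of 21887 protein-coding genes. They comprised 5 BMAL1, 5 CLOCK and 2 PDX1 peaks, 10 H3K4me2, 9 H3K27ac and 5 H2A.Z intervals. The libraries came from Beta-TC6, an established insulin-producing cell line grown from a tumour of mouse pancreatic beta cells. Cells were grown in 15% FBS for fewer than 15 passages, collected at confluence and crosslinked with 2 mM DSG and then 1% formaldehyde. The labels used here give no treatment and no time of day for any library. The targets were the clock activators BMAL1 and CLOCK, the beta-cell homeodomain factor PDX1, the histone marks H3K4me2 and H3K27ac, and the histone variant H2A.Z, with 1 library each, and 2 inputs served as controls.

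The mammalian clock runs on a feedback loop in which BMAL1 and CLOCK bind E-box DNA as a heterodimer and switch on their own repressors, the PER and CRY proteins. DBP, TEF and HLF form the PAR bZIP family, which reads this loop out: the proteins activate genes that carry a D-box. NFIL3, also called E4BP4, is a related bZIP protein that binds the same D-box sites and represses them. In many tissues the PAR bZIP genes are themselves E-box targets of BMAL1 and CLOCK.

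The genes lie on different chromosomes (mm10 coordinates; RefSeq spans on GRCm38.p6). Dbp (gene 13170) spans chromosome 7, 45705100 to 45710203, and has 8 protein-coding neighbours within 20 kb. Tef (gene 21685) spans chromosome 15, 81802673 to 81826863, and RefSeq gives it an outer start at 81802673 and an internal start at 81811414. Hlf (gene 217082) spans chromosome 11, 90336535 to 90390917, with its start of transcription at 90390917 and no other annotated gene within 20 kb. Nfil3 (gene 18030) spans chromosome 13, 52967209 to 52982878, and its RefSeq promoter window places the start at 52981039. With the 20 kb flanks, the windows measured 45104 bp for Dbp, 64191 bp for Tef, 94383 bp for Hlf and 55670 bp for Nfil3, against a median of 57169 bp over all protein-coding genes. Exons and introns were not determined, because the gene table used here lists spans only.

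BMAL1 and CLOCK peaks reached the annotated promoters of 3 of the genes, Tef, Dbp and Hlf, and these promoters are shown for that reason. Each sequence is the 250 bases before the RefSeq start (RefSeq, GRCm38.p6), read 5′ to 3′ on the strand of the gene, and capitals mark the bases inside the BMAL1 peak. The Tef sequence is that of the internal promoter at chr15:81811164-81811413 (plus strand), the Dbp sequence lies at chr7:45704997-45705246 (plus strand) and the Hlf sequence at chr11:90390918-90391167 (minus strand).
Tef: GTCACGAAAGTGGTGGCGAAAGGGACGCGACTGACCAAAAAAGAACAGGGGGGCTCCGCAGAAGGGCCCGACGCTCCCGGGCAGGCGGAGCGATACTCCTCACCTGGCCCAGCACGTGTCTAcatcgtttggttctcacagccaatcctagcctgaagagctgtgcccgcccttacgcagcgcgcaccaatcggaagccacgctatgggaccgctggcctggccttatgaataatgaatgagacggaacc
Dbp: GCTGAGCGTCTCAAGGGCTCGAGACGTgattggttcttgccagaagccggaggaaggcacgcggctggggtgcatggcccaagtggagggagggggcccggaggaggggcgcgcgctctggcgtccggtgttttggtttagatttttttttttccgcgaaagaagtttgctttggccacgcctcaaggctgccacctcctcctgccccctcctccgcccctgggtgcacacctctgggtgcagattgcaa
Hlf: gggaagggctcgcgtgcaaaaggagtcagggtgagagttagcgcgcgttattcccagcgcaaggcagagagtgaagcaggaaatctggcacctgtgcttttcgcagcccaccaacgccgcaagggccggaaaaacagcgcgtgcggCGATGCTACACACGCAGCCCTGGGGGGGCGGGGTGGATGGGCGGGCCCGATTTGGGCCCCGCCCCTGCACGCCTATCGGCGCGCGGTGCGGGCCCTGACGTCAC

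The BMAL1 peak took in 122 of these 250 bases at Tef, 27 at Dbp and 104 at Hlf. The canonical E-box CACGTG, searched on both strands, occurred in 2 of the 5 promoter windows of the genes (300 bases, from 250 before to 50 after a start), against 7.15% of all 32851 RefSeq promoter windows. Both were Tef windows. The E-box of the internal promoter starts 138 bases before the start site, at 81811276 to 81811281. It lies inside the BMAL1 peak, 158 bp from its centre, and 58 bp beyond the edge of the narrower CLOCK peak. The E-box of the outer Tef promoter, 127 bases before its start, is 8572 bp from the BMAL1 peak, and the outer window held no peak of any of the 6 lists. Both sites are shown with 10 bases on either side and the E-box in capitals, at chr15:81811266-81811291 for the internal and chr15:81802536-81802561 for the outer promoter (plus strand), since the same letters lie in a bound and an unmarked promoter of 1 gene.
Tef internal: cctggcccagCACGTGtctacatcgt
Tef outer: gctgtggctcCACGTGctgcagctgg

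The D-box forms TTATGTAA and TTACGTAA were in 0 of the 5 windows, against 0.938% and 0.119% of all windows. In the 24 windows of 16 other core clock genes, CACGTG occurred in 4 (16.7%), at Bhlhe41, Ciart, Cry1 and Per1, and TTATGTAA in 1, at Per3. These windows cover only part of each peak. The centres of the Tef, upstream Dbp and Hlf promoter BMAL1 peaks lie outside them, so a motif at a centre would have been missed. The internal Dbp peak and the Nfil3 peak lie outside the promoter windows, and their sequences were not read here.

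All 4 genes had a BMAL1 peak and all 4 had a CLOCK peak, while 14.0% of protein-coding genes had a BMAL1 peak and 8.23% a CLOCK peak within the same distance. Every one of the 5 BMAL1 peaks overlapped a CLOCK peak by at least 1 bp, against 6.25% of all BMAL1 peaks. Such a shared site lay in reach of 2.00% of protein-coding genes. Values are HOMER's normalized tag counts, the tags under a peak scaled to 10000000 tags per library, with exact Poisson 95% intervals that cover counting error only. Overlap with CLOCK was common among strong BMAL1 peaks. Of the 71 with a value of 30 or more, 49 under 100 and 11 at 100 or more overlapped CLOCK. All the BMAL1 peaks counted here except that of Nfil3 were above 30. With 1 library per target there was no replicate spread, and no test was made. Tags are averaged over the culture, so that occupancy in more cells and stronger occupancy per cell cannot be told apart. With a minimum of 8 times the input in place of the authors' 4 times, 3 of the 5 BMAL1 peaks and 2 of the 4 genes (Dbp and Tef) were left, and all 5 CLOCK peaks stayed. Over the whole lists, 59.3% of BMAL1 peaks and 54.3% of CLOCK peaks passed this filter.

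**Figure D1:**
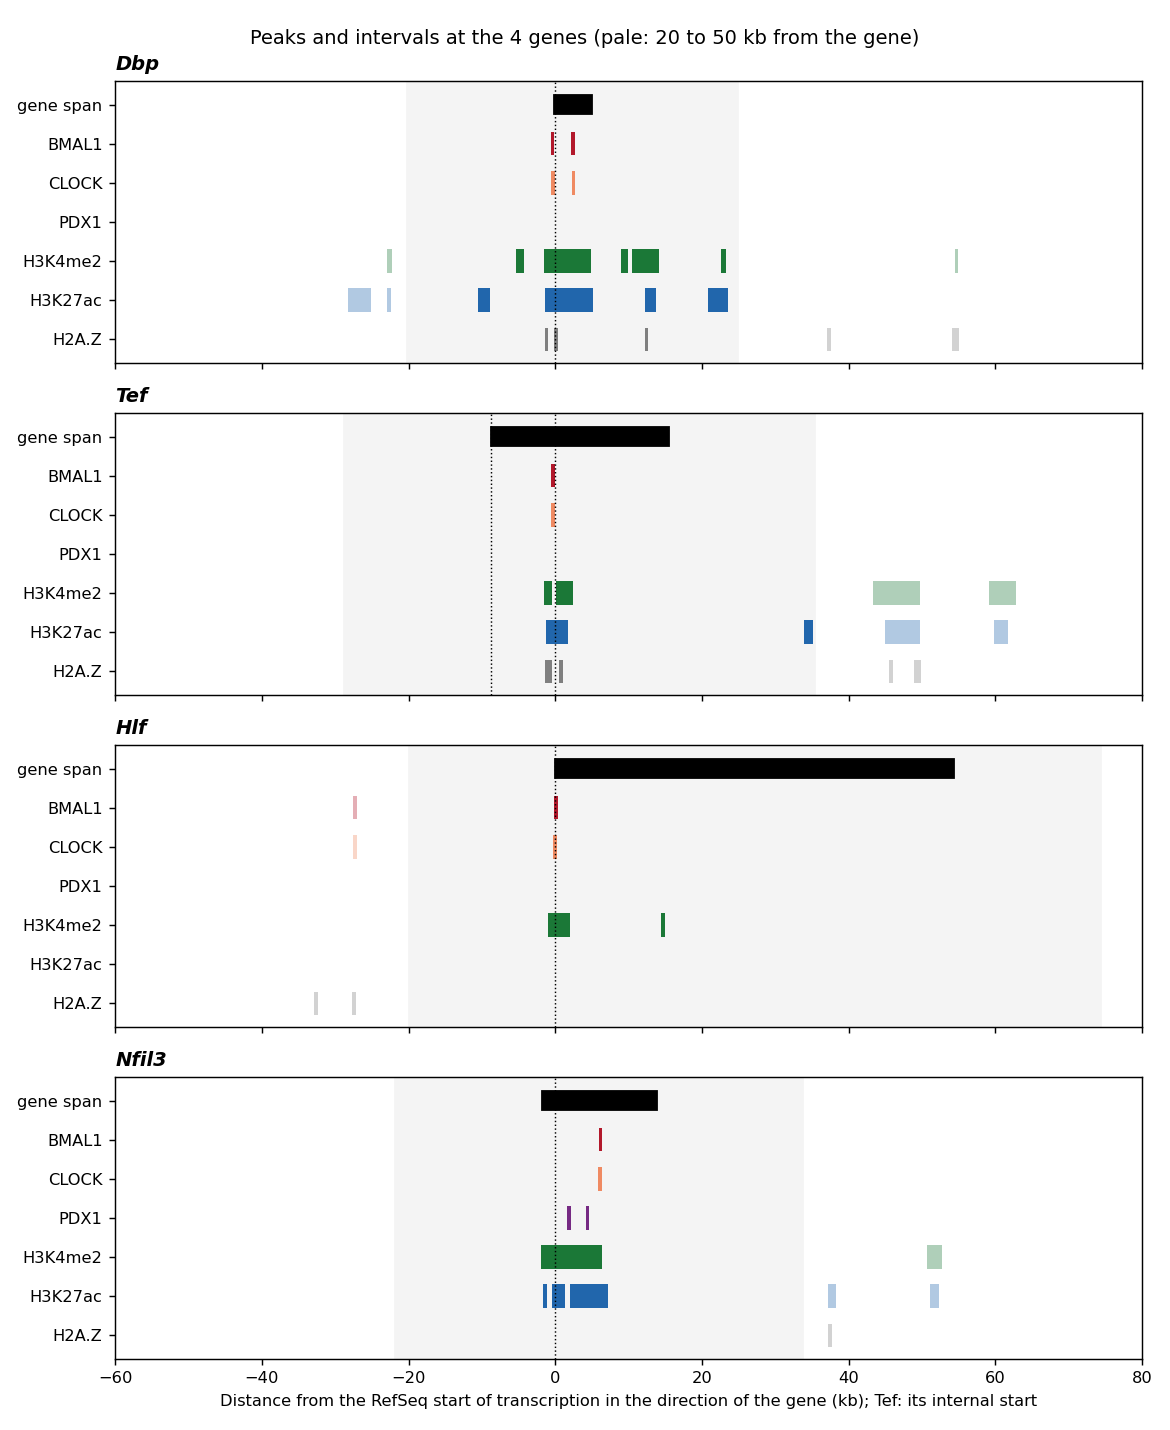
Peaks and intervals of the 6 lists (rows, coloured boxes) at Dbp, Tef, Hlf and Nfil3, by distance in kb from the RefSeq start (dotted lines; for Tef both starts, with 0 at the internal start), in the direction of transcription. The grey field is the span plus 20 kb, black boxes are gene spans, paler boxes lie 20 to 50 kb from the gene, and peaks are drawn at least 0.5 kb wide. Marked chromatin sits at the bound starts of Dbp and Tef, and the H3K27ac row of Hlf is empty.

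Tef carried the highest values of the set. Its BMAL1 peak, at chromosome 15, 81810955 to 81811285, had a normalized tag count of 218.7 (95% interval 194 to 246, 282 tags) and was the rank 2 peak of 4125. Its CLOCK peak, at 81811014 to 81811218, had 162.0 (144 to 182) and was the rank 2 peak of 1378. The centres of the 2 peaks were 4 bp apart, 294 bp and 298 bp before the internal start. TEF is the family member first described in the thyrotroph cells of the pituitary. The next BMAL1 peak was 185535 bp away, so the locus held a single strong site.

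Dbp, which encodes the D-box binding protein of the albumin promoter, had a pair of strong sites. The upstream BMAL1 peak, at chromosome 7, 45704693 to 45705023, had a normalized tag count of 106.3 (89.2 to 126) at rank 11, centred 389 bp before the RefSeq start. The internal BMAL1 peak, at 45707539 to 45707869, had 134.2 (115 to 156) at rank 5, centred 2457 bp after the start. The intervals of the pair overlap, which does not decide their order, and the difference was not tested. CLOCK showed the same pair, with 76.5 (64.3 to 90.5) at rank 12 upstream and 94.4 (80.7 to 110) at rank 8 inside the gene. The 2 BMAL1 centres lay 2846 bp apart. Among the 50 highest BMAL1 peaks there were 3 pairs within 5 kb of each other, and the other two lay within 5 kb of Nr1d1, which encodes the nuclear receptor REV-ERB alpha, and in an interval of chromosome 16 with no protein-coding gene within 5 kb. The upstream peak was within 20 kb of 6 other protein-coding genes and the internal one of 7, among them Car11 and Sphk2, so these peaks cannot be assigned to Dbp by distance alone.

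Hlf encodes the hepatic leukemia factor, the PAR bZIP protein known from a leukemia gene fusion. Its BMAL1 peak, at chromosome 11, 90390691 to 90391021, had a normalized tag count of 45.0 (34.2 to 58.2) and rank 35, centred 61 bp after the start of transcription. The CLOCK peak, at 90390820 to 90391024, had 52.0 (41.9 to 63.7) and rank 21, centred 5 bp before the start. This site lay on the promoter itself, closest to a start among the 5. It exceeded the input by 7.19-fold for BMAL1, below the list median of 8.87, although it exceeded the surrounding 10 kb by 30.4-fold against a list median of 5.79.

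A second and stronger site near Hlf fell outside the 20 kb rule and was singled out after its values were seen. It lay at chromosome 11, 90418033 to 90418363, 27281 bp upstream of the start, with a BMAL1 normalized tag count of 112.5 (94.9 to 132, rank 10) and a CLOCK value of 83.8 (70.9 to 98.3, rank 10). The 2 centres were 2 bp apart. Its interval did not overlap that of the promoter peak for either factor, so the distal site was higher beyond counting error in both libraries. It was the only BMAL1 or CLOCK site added when the flank was widened to 50 kb.

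Nfil3, the D-box repressor, had the weakest pair. Its BMAL1 peak, at chromosome 13, 52974729 to 52975059, had a normalized tag count of 15.5 (9.48 to 24.0, 20 tags) and rank 195. Its CLOCK peak, at 52974830 to 52975034, had 17.3 (11.8 to 24.6) and rank 120. The site lay inside the gene, 6145 bp after the start, and no promoter peak of either factor was detectable at this depth. BMAL1 exceeded the input by 6.82-fold. The nearest other BMAL1 peak was 533248 bp away.

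**Figure D2:**
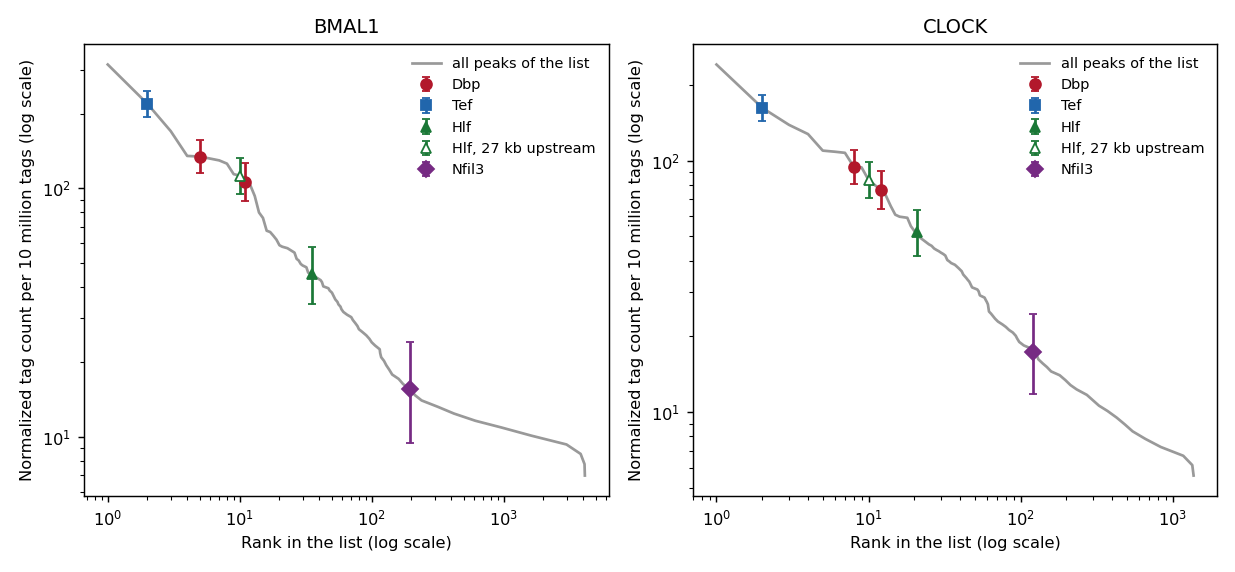
Normalized tag count per 10000000 tags against rank, both on log scales, for all BMAL1 peaks (left) and all CLOCK peaks (right). Symbols mark the peaks of the 4 genes with exact Poisson 95% intervals, and the open triangle is the distal Hlf site. Tef is at rank 2 in both lists, and Nfil3 is at rank 195 of 4125 and rank 120 of 1378.

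The order of the genes was Tef, Dbp, Hlf, Nfil3 in both lists, and for the best peak of each gene no neighbouring pair in this order had overlapping counting intervals. The other core clock genes show where these levels fall. Of 21 such genes, 13 had a BMAL1 peak (61.9%, against 14.0% of all protein-coding genes), 13 had a CLOCK peak and 12 had a BMAL1 peak on CLOCK. Their median best BMAL1 normalized tag count was 36.5 with the genes without a peak counted as 0. Tef fell between Nr1d2 (314.9, interval 285 to 347) and Per2 (169.9, 148 to 194); its interval did not overlap that of Nr1d2 and met that of Per2 at its edge. Dbp was level with Ciart (134.2) and next to Per1 (129.5), with overlapping intervals. Hlf came just before Arntl (40.3, 30.1 to 52.9), again with overlap. Nfil3 came after Clock (23.3, 15.7 to 33.2) and was the lowest of the 17 genes with a BMAL1 peak. In the CLOCK order Tef again stood between Nr1d2 (240.8) and Per2 (138.6), Hlf came just before Cry2 (39.1), and Nfil3 stood between Bhlhe40 (22.3) and Arntl (10.6), while Dbp (94.4) stood next to Nr1d1 (107.3) and Per3 (93.9). With the distal site counted, Hlf would stand next to Per3 (114.0).

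The balance of the 2 factors was read as the ratio of CLOCK to BMAL1 normalized tag counts in overlapping peaks. CLOCK tags were counted over 204 bp and BMAL1 tags over 330 bp, so a ratio of 1 does not mean equal occupancy. Over all 258 pairs the median ratio was 0.826 (quartiles 0.687 and 1.04). The ratio was 0.741 at Tef (95% interval from the tags 0.627 to 0.876), 0.720 at the upstream and 0.703 at the internal Dbp site. The internal Dbp site had the lowest ratio of the 11 pairs with a BMAL1 value of 100 or more, which ranged up to 1.01. Its interval of 0.566 to 0.875 took in the quartiles of those pairs (0.743 and 0.820), so this place is not settled by the counting error. The ratio was 1.16 (0.823 to 1.63) at the Hlf promoter and 1.12 (0.616 to 2.07) at Nfil3, above 216 and 205 of the 258 pairs. The distal Hlf site had 0.745. The intervals of the Hlf promoter and of Nfil3 overlap those of Tef and Dbp. Overlap of single intervals does not decide whether 2 ratios differ, and the difference was not tested. Peak centres of the 2 factors were 4 bp apart at Tef, 17 and 79 bp at Dbp, 66 bp at the Hlf promoter and 38 bp at Nfil3, against a median of 41.0 bp over all pairs.

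**Figure D3:**
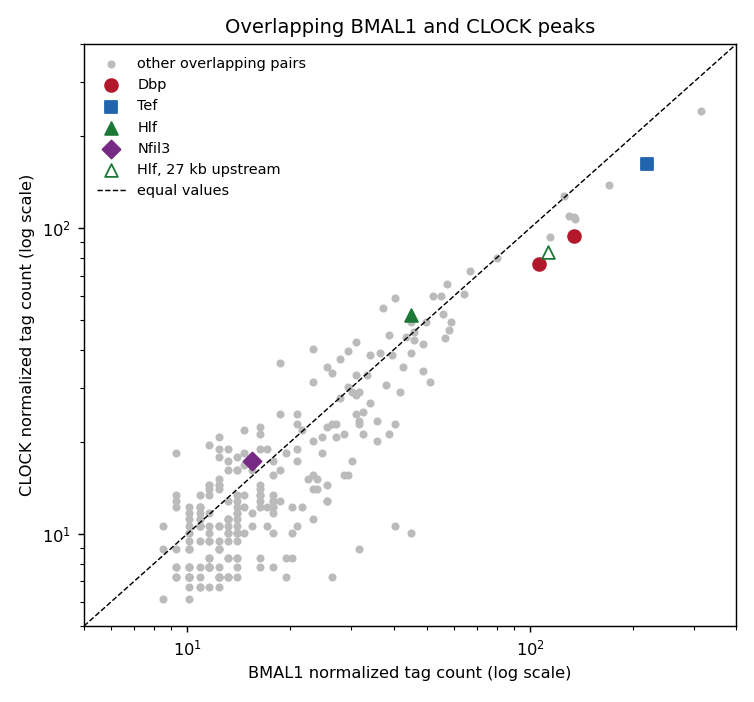
CLOCK against BMAL1 normalized tag count for the 258 overlapping pairs of peaks, both on log scales, with the sites of the 4 genes in colour and the distal Hlf site as an open triangle. The dashed line marks equal values. Tef, both Dbp sites and the distal Hlf site lie below it, and the Hlf promoter and Nfil3 lie just above it.

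The chromatin of the loci was then compared. H3K4me2, a mark of promoters and enhancers, was found at all 4 genes (background 74.8% of protein-coding genes). H3K27ac, the mark of active promoters and enhancers, was found at 3 (background 63.1%), and H2A.Z, a histone variant at promoters, at 2 (background 60.5%). These shares are near the background and single no gene out. At 8 times the input 1 of the 10 H3K4me2 intervals, at 1 gene, was left, while 21.5% of all H3K4me2 intervals passed. Of the 5 BMAL1 peaks, 4 overlapped H3K27ac (18.3% of all BMAL1 peaks did), 4 overlapped H3K4me2 (18.4%), 0 overlapped H2A.Z (8.63%) and 0 overlapped PDX1 (5.14%). All 5 were also on CLOCK, and of the 258 BMAL1 peaks on CLOCK 80.2% overlapped H3K27ac, 69.4% H3K4me2 and 27.1% H2A.Z. The 4 of 5 on each of H3K27ac and H3K4me2 are thus near the shares of such peaks.

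At Dbp both clock sites lay in 1 broad active domain. The H3K4me2 interval, at 45703643 to 45710099, was 6456 bp wide with a normalized tag count of 393.2 (370 to 418) and rank 71 of 41140. The H3K27ac interval, at 45703896 to 45710376, was 6480 bp wide with 1455.7 (1392 to 1522) and rank 125 of 29735. Per kb this H3K27ac interval held a normalized tag count of 225, against a list median of 40.6, and 1.12% of intervals were denser. H2A.Z lay on either side of the upstream BMAL1 peak, 375 bp away upstream and 86 bp away on the side of the gene, with values of 8.1 and 14.0, and a further H2A.Z interval of 9.72 lay 12461 bp after the start. Another 3 H3K27ac intervals in the window had values of 67.8 to 145.9, and 4 further H3K4me2 intervals had 12.7 to 141.7.

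At Tef the clock site sat in a gap between called H3K4me2 intervals. Signal below the calling threshold is not listed, so the H3K4me2 level within the gap is not known. H3K4me2 intervals ended 45 bp before the BMAL1 peak (90.0, interval 81809829 to 81810910) and began 227 bp after it (104.2, interval 81811512 to 81813792), which left a gap of 602 bp. The interval before the peak held 83.3 tags per kb on the normalized scale, and 0.564% of H3K4me2 intervals were denser. Its excess over the input was lower, at 4.53-fold against a list median of 5.72 and a required 4-fold. The interval after the peak exceeded the input by 5.88-fold. H2A.Z showed a similar arrangement, with an interval of 25.9 (19.1 to 34.4) ending 5 bp before the peak and 1 of 11.9 (7.45 to 18.0) starting 630 bp after it. H3K27ac ran through the gap as a single interval of 3119 bp with a value of 268.1 (241 to 297, rank 3729). A further H3K27ac interval of 49.1 lay beyond the 3′ end of the gene, and no mark was detectable in the outer promoter window.

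Hlf differed from the others in its acetylation. An H3K4me2 interval of 2927 bp covered the promoter and the clock site with a normalized tag count of 106.8 (94.8 to 120, rank 5666). This total was about that of the intervals at Tef, but per kb it held 36.5, against 83.3 and 45.7 there. The Hlf interval exceeded the input by 4.31-fold, near the required 4-fold and below the list median of 5.72. A narrow H3K4me2 interval of 9.37 lay inside the gene. H3K27ac and H2A.Z had no interval in the whole 94383 bp window. The nearest H3K27ac intervals were 157903 bp and 163632 bp from the promoter BMAL1 peak. Among the 71 BMAL1 peaks with a normalized tag count of 30 or more, 67.6% overlapped H3K27ac. The distal Hlf site had neither H3K4me2 nor H3K27ac, and overlapped an H2A.Z interval of 10.3 (6.18 to 16.0). The lowest H3K27ac interval in the list had a normalized tag count of 5.96, from a library of 13430083 tags, and weaker acetylation would not be listed.

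Nfil3 combined the weakest clock site with a broad promoter domain. Its H3K4me2 interval, at 52974709 to 52982988, was 8279 bp wide with a normalized tag count of 415.3 (391 to 441) and rank 59 of 41140, and 0.0972% of the list was wider. The BMAL1 peak started 20 bp inside the end of this interval that faces the 3′ end of the gene. H3K27ac had 3 intervals with values of 198.8, 153.4 and 17.1, which covered 13.3% of the window, and the BMAL1 peak lay in the widest of them (5083 bp). That interval held 39.1 per kb, close to the list median of 40.6, whereas the interval over the start, at 52979676 to 52981476, held 85.2. H2A.Z was not detectable in the window.

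**Figure D4:**
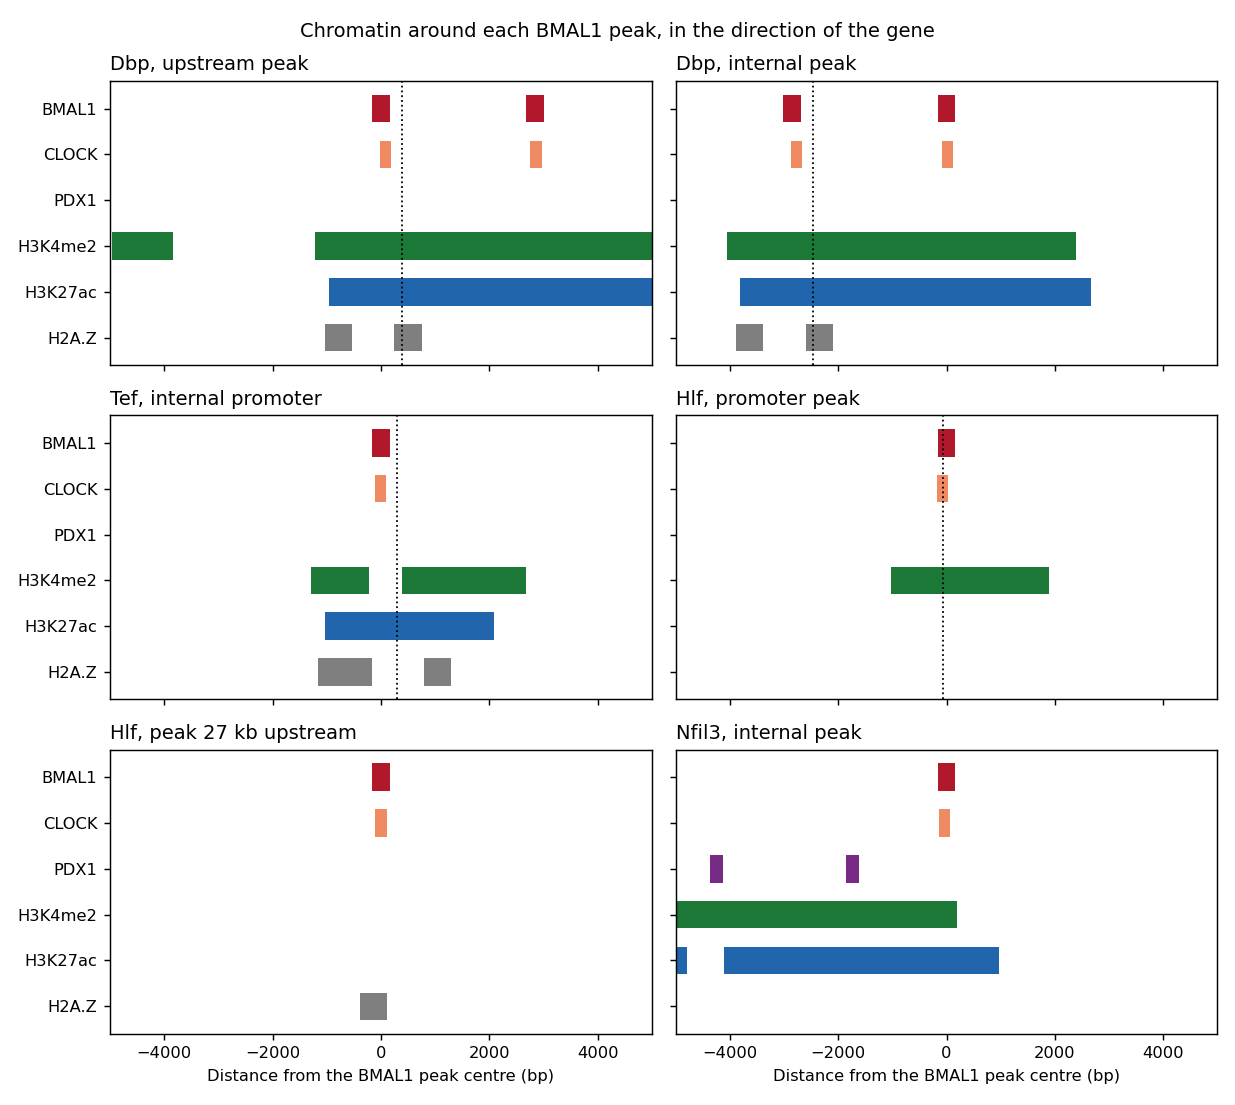
Intervals of the 6 lists (rows, coloured boxes, drawn to scale) within 5 kb of each BMAL1 peak centre, in the direction of the gene, with dotted lines at RefSeq starts. The Tef peak sits in the 602 bp gap between H3K4me2 intervals, both Dbp peaks share 1 interval of each mark, and the Hlf panels have no H3K27ac.

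PDX1 was found at 1 of the 4 genes, Nfil3, where 41.2% of protein-coding genes had a PDX1 peak in reach. The peak at chromosome 13, 52976515 to 52976749, had a normalized tag count of 11.8 (7.45 to 17.6, rank 11028 of 34883), 4407 bp after the start. The other, at 52979025 to 52979259, had 9.2 (5.45 to 14.5, rank 17010), the median of the PDX1 list. Both lay in the broad H3K4me2 interval, 1738 bp and 4248 bp from the BMAL1 centre. The stronger overlapped H3K27ac (21.1% of all PDX1 peaks did), and the weaker fell 25 bp outside the edge of that interval. Neither overlapped BMAL1, as 0.608% of PDX1 peaks did. Dbp, Tef and Hlf had no PDX1 peak, also with a 50 kb flank.

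**Figure D5:**
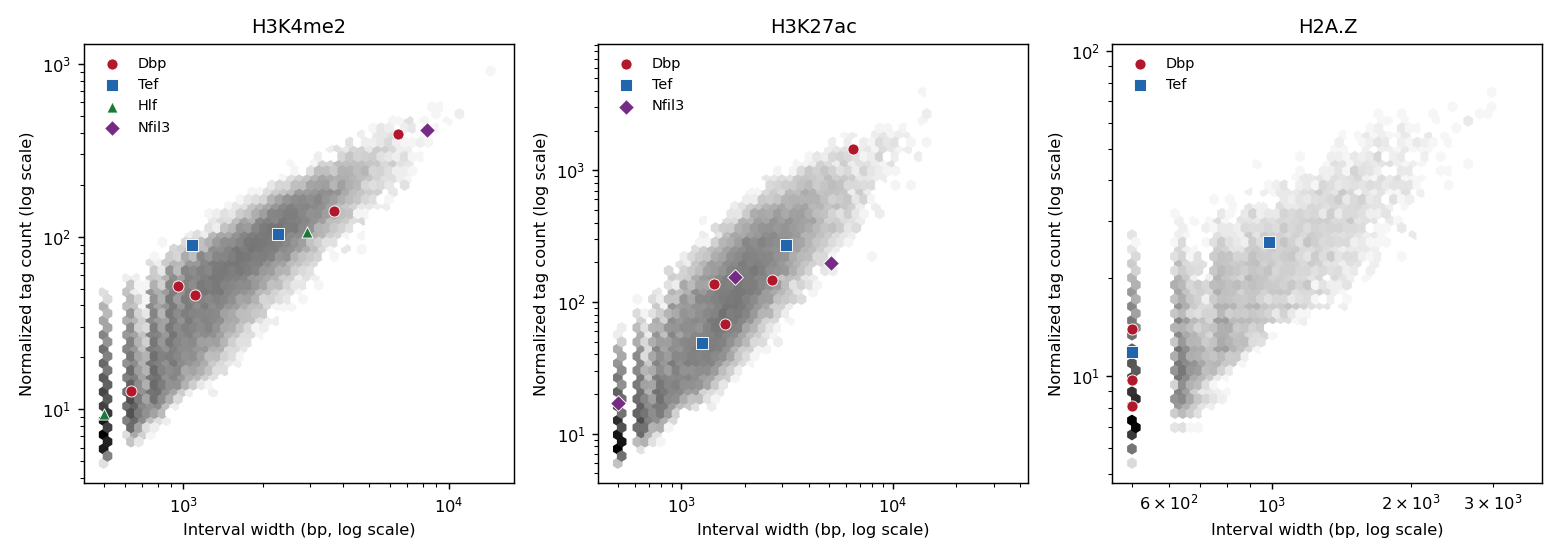
Normalized tag count against interval width, both on log scales, for all intervals of H3K4me2, H3K27ac and H2A.Z (grey, darker where more intervals fall), with the intervals of the 4 genes as symbols. The main Dbp and Nfil3 intervals are among the widest and highest of H3K4me2 (393.2 and 415.3), and Dbp stands far above the other members in H3K27ac (1455.7).

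Genes with the most similar pattern were sought by the Euclidean distance over the 6 lists of log2(highest normalized tag count within 20 kb + 1). For Dbp the nearest 3 (Sec1, Ntn5 and Car11, distance 0.00) were neighbours that reach the same peaks. Among genes whose windows did not overlap its own, Per2 (1.02), Msl1 (1.58) and Per1 (1.95) were nearest, a step added after the neighbours were seen. For Tef the neighbour Zc3h7b came first, followed by Per3 (1.48) and Gm38529 (1.49), which shares the peaks of Per3. Hlf had no close match, with C2cd4d (2.94) ahead of Vta1 (3.57) and Avpi1 (4.17). Nfil3 was nearest to Fnip1 (1.40), H2az2 (1.43) and Ppia (1.44). Likeness here rests on 6 values per gene from 1 library each.

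Related genes were listed for comparison. The C/EBP family and Ddit3 are bZIP genes whose proteins bind DNA sites related to the D-box; of these 6 genes 0 had a BMAL1 peak and 2 a CLOCK peak (values 8.94 and 15.6), while all 6 had H3K4me2. Of 14 genes described as D-box targets, 6 had a BMAL1 peak, with best values of 114.0 to 314.9, and the same number had CLOCK. All 6 belong to the 8 that are also on the clock list, and the 6 others (Por, Cyp7a1, Alas1, Nr1i3, Pdxk and Ppara), set apart after their values were seen, had no detectable peak of either factor. As a check of the cell label, all 10 beta-cell marker genes had H3K27ac in reach, with a median best value of 2058, as did 1 of 4 acinar genes (median 0.00) and 3 of 4 liver genes (median 133). Acinar Cela1, Ptf1a and Prss2 and liver Serpina1a had none. PDX1 was in reach of all 10 beta-cell genes, of 3 of the 4 liver genes and of 1 of the 4 acinar genes. The backgrounds were 63.1% of protein-coding genes for H3K27ac and 41.2% for PDX1.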

How the data were processed

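Beta-TC6 ChIP-seq peak lists of 6 targets were used, 1 library each, with total tags from 12892080 (BMAL1) to 26678241 (H3K4me2), per the file headers. The aligner was Bowtie 1.1.1 and the build mm10, per the submitters' processing notes. Peaks were called for each library with HOMER findPeaks against an input, with at least 4 times the input, per the file headers; no source used here gives the HOMER version. The input of H2A.Z is named differently in its description and its header, and the header was followed. The inputs themselves were not analysed here.

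The deposited normalized tag count is a signal per 10000000 tags and gave levels and ranks. Tags were recovered from it by rounding. They equalled the deposited tag counts of BMAL1 and H3K27ac in 100% of peaks. They gave exact Poisson 95% intervals for counting error only. The deposited fold over input, a ratio, served for display and for the filter at 8. The deposited score, focus ratio (a fraction), p-value and region size entered no result. Overlap meant at least 1 shared bp.

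Gene spans and promoters came from RefSeq for GRCm38.p6, whose coordinates are those of mm10. All 4 genes matched, with 5 promoter windows. The members, lists and rules were chosen with earlier results of these data known. Named were the 4 genes and all their BMAL1, CLOCK and PDX1 peaks, the tallest marked intervals, adjacent clock genes in the BMAL1 order and the 3 most similar genes. No test was made, since each target had 1 library. The counting of windows and overlaps was tested on simulated data. Alternatives were flanks of 5 and 50 kb, 8 times the input, the upper 50% of each list and stricter overlap. Counts and intervals were computed with SciPy 1.17.1 and pandas 2.3.3 on Python 3.11.15, and plots with matplotlib 3.10.9. Some comparison genes are not reported here.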

Additional observations from a re-analysis of the deposited data

How the results depend on the processing

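Counts at the 4 genes were recomputed in 54 alternatives over 13 results, and 42 were within 1.5 times the main count. At 8 times the input, 3 BMAL1 peaks at 2 genes were left, all 3 on CLOCK, with 1 PDX1 peak, 1 H3K4me2 interval at 1 gene, 4 H3K27ac and 3 H2A.Z intervals. Over the whole lists the same filter kept 59.3% of BMAL1, 54.3% of CLOCK and 72.2% of PDX1 peaks. It kept 21.5% of H3K4me2, 37.6% of H3K27ac and 34.2% of H2A.Z intervals. With a 50 kb flank there were 15 H3K27ac intervals, and 12 H2A.Z intervals at 4 genes. With a 5 kb flank there were 5 H3K27ac intervals. In these the number of peaks tested or the window changed by construction. Stricter overlap left all 5 BMAL1 peaks on CLOCK. No paired analysis was possible because each target had 1 library, which also means that no library could be left out. Nfil3 rests on 20 BMAL1 and 31 CLOCK tags, the thinnest of the clock sites.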

Other observations

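The gap arrangement at Tef was uncommon among BMAL1 peaks. Of 4125 BMAL1 peaks, 38 (0.921%) lay outside H3K4me2 with an H3K4me2 interval within 1 kb on both sides. The share was higher in the classes that the Tef peak belongs to. Of the 71 with a normalized tag count of 30 or more 5 did (7.04%), and of the 258 on CLOCK 13 did (5.04%). Flanking H2A.Z intervals within 1 kb were found at 9 BMAL1 peaks (0.218%), and 2 of these were the Tef peak and the upstream Dbp peak. Among the 71 strong peaks 3 had them (4.23%), and among the 258 on CLOCK 4 did (1.55%). These counts were made after the arrangement was seen, and no test was run.

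H3K4me2 intervals with a BMAL1 peak numbered 752 and had a median width of 1788 bp, against 939 bp for the whole list. Wider intervals have more room for a peak, and no allowance was made for this. The Dbp and Nfil3 intervals, at 6456 and 8279 bp, and the Hlf interval, at 2927 bp, were all wider than both medians.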
